A study of Mus musculus with 16 samples.

Results

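Mitochondria hold a ribosome of their own, which makes the few subunits of the respiratory chain that mitochondrial DNA encodes. Its RNA is transcribed inside the organelle, whereas all of its proteins are encoded in the nucleus, made in the cytosol and imported, so their mRNAs reach a microarray like those of any other nuclear gene. The proteins are named for the large (Mrpl) and the small (Mrps) subunit; some descend from bacterial ribosomal proteins, and others exist only in mitochondria. Motor neurons depend heavily on oxidative phosphorylation, and altered mitochondria are a known feature of the SOD1G93A mouse. Each array probe whose gene name began with Mrpl or Mrps followed by a digit was taken as a mitochondrial ribosomal protein probe, with no measured value used, which gave 125 of the 41174 probes of the array and 75 of the 27962 gene names. Of these genes, 46 carry a large subunit symbol (75 probes) and 29 a small subunit symbol (50 probes). Symbols are those of the array design and some are historical: the products of Mrps30 and Mrps18a are now placed in the large subunit, and Mrps36 is now assigned to the oxoglutarate dehydrogenase complex.

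The samples were lumbar spinal cords of male mice on the B6SJL background, either SOD1G93A, which carry a mutant human SOD1 transgene and model familial amyotrophic lateral sclerosis, or NonTg littermates without it. There were 4 arrays for each genotype at 40 days and 4 at 80 days, 16 in all, both ages being earlier than overt paralysis. The transgenic line overexpresses mutant human SOD1 in many cell types, so no group tests the loss of the mouse gene. On every array the cord RNA was labelled with Cy3 and hybridised against a Cy5-labelled pool of neonatal heart, liver and kidney RNA from mice of both genotypes. A value is therefore the log2 ratio of cord to pool for 1 probe, positive where the cord signal was the higher, and a log2 change is the difference between the mean ratios of 2 groups of arrays. No array had its dyes exchanged, so a dye effect of a probe stays in its ratio but cancels in a change between groups. Whole cord was measured, so fewer cells of a type and less RNA per cell cannot be told apart.

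The Cy3 signal was well above background for 46.7 to 56.1% of probes per array. Of the 125 mitochondrial ribosomal protein probes, 108 were well above background on all 16 arrays and 7 on none; each of the 7 belonged to a gene with another, brighter probe. After a filter on dim probes, 114 probes were tested at 40 days and 113 at 80 days, and all 75 genes kept at least 1 probe at both ages. At 40 days 2 of these probes passed only through the SOD1G93A arrays, and at 80 days 1 passed only through the NonTg arrays. Hoxc10 and Hoxa10, which mark the lumbar level, and Slc5a7, the choline transporter of motor neurons, were well above background on all 16 arrays, whereas the 2 probes of Chat were so on 1 and 0 arrays. Skeletal muscle markers stood apart on 1 array, SOD1G93A 40 days replicate 2, whose median deviation over 10 muscle probes from their 16-array means was 2.82 on the log2 scale against -0.72 to 1.09 on the others. The same median for microglial markers was highest on SOD1G93A 80 days replicate 4, at 1.01. A mouse Sod1 probe well above background on all arrays had mean ratios between 0.05 and 0.22 in the 4 groups; whether it binds the human transcript was not tested.

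Probe sequences matter here because 33 of the 75 genes had 2 to 4 probes, and some of the results below differ between probes of 1 gene. All probes are 60 bases long. Positions are those of the array design on the mm7 assembly, and 24 of the 125 probes cover more than 60 bases there, so that their ends lie in separate blocks of the genome. Mrps33, which encodes a small subunit protein found only in mitochondria, has 3 probes, and 2 of them are not independent: A_52_P342896 (chr6:39732538-39735539, minus strand) and A_52_P579658 (chr6:39732529-39735414, minus strand) share 33 bases, of which the first 30 are given here in capitals.
Shared by both Mrps33 probes: GAGATGAGCATCAGGACTTTAAGGATGAGC
The probes of Mrpl40 and of Mrps23 also overlapped, by 24 and 21 bases. The other pairs of probes of 1 gene shared at most 12.

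For Mrpl3, the relative of bacterial L3 beside the peptidyl transferase centre, the first 30 bases of the 4 probes show that they read different stretches of the locus on the plus strand of chromosome 9. The first covers 104780383 to 104787693, far more than its own length, the second 104792167 to 104792226, the third 104793461 to 104793520 and the fourth 104793640 to 104793699.
Mrpl3 A_52_P480373: acagccaaaactattggtaaaggttttcag
Mrpl3 A_52_P679491: gagaagtcactacttgcatcctatgtgaca
Mrpl3 A_51_P348976: agatcaggaatgggaatcgcattccctcgg
Mrpl3 A_52_P606303: cgcctgtcatttataggtgtcattctttag
For Mrps5, the relative of bacterial S5, the 4 probes lie along the plus strand of chromosome 2, at 127331631 to 127332722, 127341716 to 127342266, 127344482 to 127344541 and 127347312 to 127347371 in that order.
Mrps5 A_52_P147870: cacggctcattgtcatccagggaaacaagg
Mrps5 A_51_P493270: tagaacgatacgaaggacatacaatattcc
Mrps5 A_52_P650288: gaaacccaccaacatctggcggataagaag
Mrps5 A_52_P333241: catggctataaatagaagctaattgctaag

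In wild-type cord the mitochondrial ribosomal protein genes were close to balance with the pool, relative to the scaling of the arrays. Over the 8 NonTg arrays the mean log2 ratios of the 114 probes ran from -0.87 to 1.75. Their median was 0.02, beside 0.08 over all probes tested, and 58 were above 0 and 56 below. Their spread was narrow: the SD over these probes was 0.47, against 1.23 over all 21953 probes tested. The 44 probes of respiratory complex I subunits had a median of -0.11 and an SD of 0.36, and the 124 probes of cytosolic ribosomal proteins lay lower, with a median of -1.08 and 118 of them below 0. Cytosolic ribosomal proteins build the ribosomes of the cytoplasm, and complex I, the entry point of the respiratory chain, holds several of the subunits that the mitochondrial ribosome makes. The large subunit probes had a median of -0.08 and the small subunit probes one of 0.11. Proteins with a bacterial counterpart had a median of -0.08, and those found only in mitochondria one of 0.12. These medians are descriptions, since a level in 3 pooled neonatal organs is set against adult cord.

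At the low end stood Mrpl54 at -0.87, Mrps35 at -0.87, Mrps30 at -0.77 and the Mrpl3 probe A_52_P606303 at -0.73. At the high end stood the Mrpl35 probe A_52_P223407 at 1.75, the Mrpl3 probe A_52_P679491 at 1.51, the Mrps25 probe A_51_P121325 at 1.29 and the Mrpl49 probe A_52_P484691 at 1.04. All 4 of the highest probes belong to genes with several probes, and the other probes of those genes were lower. In Mrpl35, the relative of bacterial L35, the brightest probe, A_52_P590269, lay at -0.64 and the remaining one, A_51_P351697, at 0.20, so that the probes of this gene covered 2.40 log2 units. The probe of 1.75 lies at chr6:71831195-71831254 on the minus strand, beyond the other 2 in the direction of transcription. In Mrpl3 the 3 remaining probes lay between -0.73 and -0.54, and the range was 2.24. The probes at 1.75 and 1.51 carry accessions that the RefSeq table does not list, whereas the other probes of both genes carry listed RefSeq transcripts. Among the 26 genes with several tested probes the range was over 1 in 3 (Mrpl35, Mrpl3 and Mrps25) and its median was 0.17. For most of these genes the probes thus gave similar ratios, and the plot of ratios by gene shows the few that did not.

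**Figure D1:**
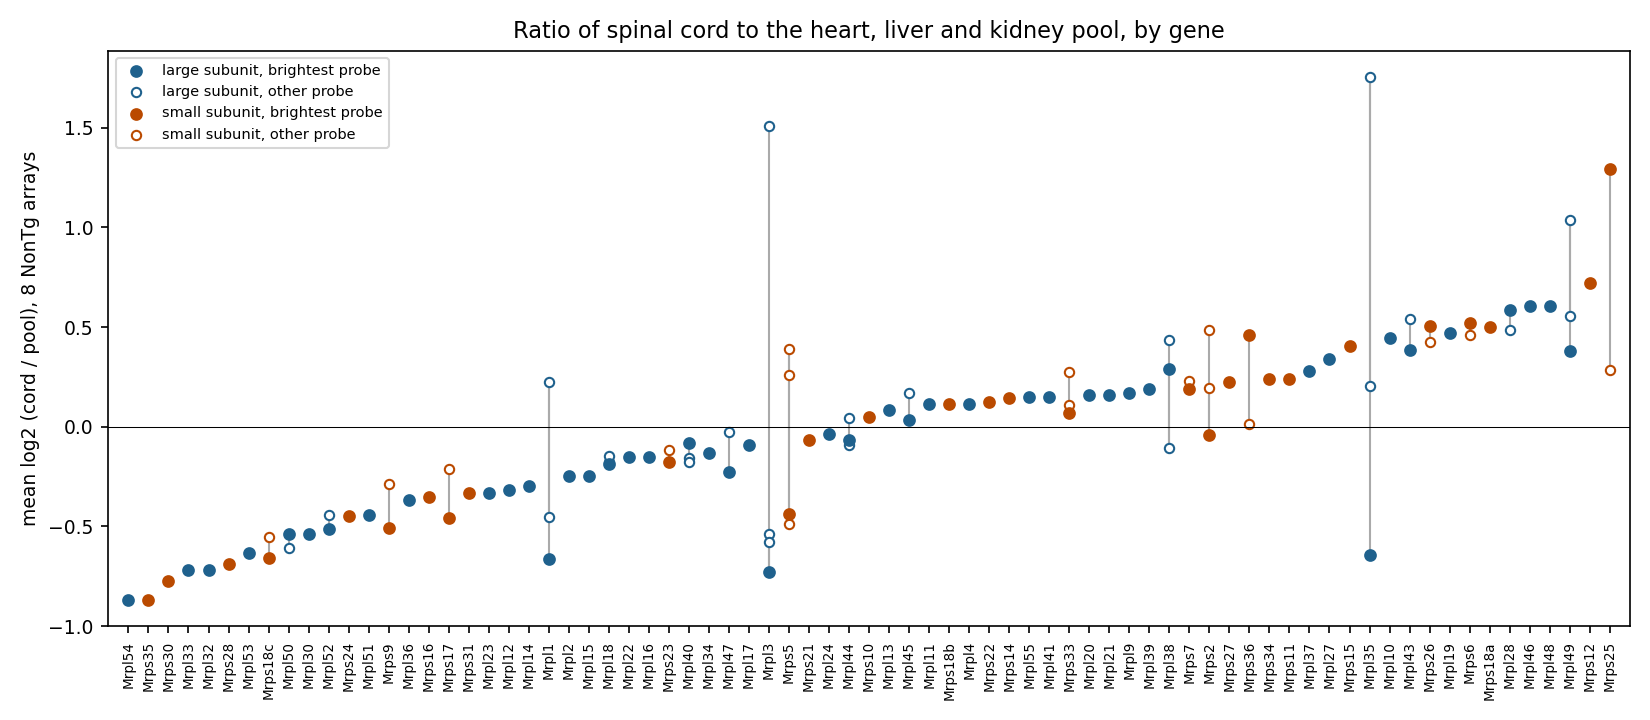
Mean log2 ratio of cord to pool over the 8 NonTg arrays (vertical axis) for each of the 114 tested probes, with the genes along the horizontal axis in order of their mean; filled points are the brightest probe of a gene, open points its other probes, and a grey line joins probes of 1 gene. The brightest probes lie between -0.87 and 1.29, and in Mrpl35, Mrpl3 and Mrps25 the probes lie more than 1 log2 unit apart.

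At 40 days the 2 genotypes did not differ at the threshold in any mitochondrial ribosomal protein probe: 0 of 114 had an unadjusted p under 0.05 in limma, where 4.47% of all 21338 probes tested did. The median log2 change from NonTg to SOD1G93A was -0.01, beside 0.00 over all probes, with 49 probes above 0 and 65 below. The changes were also small in size, with a median size of 0.03 beside 0.05 over all probes. The precision allows a bound: the 95% interval of the change lay within 0.5 of 0 in 113 of the 114 probes and within 0.25 in 96. The exception at 0.5 was Mrpl55, a large subunit protein, with the largest fall. Its ratios were 0.49, -0.28, 0.40 and 0.01 on the NonTg arrays and -0.38, -0.04, -0.40 and 0.02 on the SOD1G93A arrays, so the groups overlapped. The change was -0.36 ± 0.17 (SE), with an interval of -0.74 to 0.02 and p = 0.0597 in limma, and an exact permutation test (two-sided, 4 against 4) gave 0.143. The largest rise was 0.15 ± 0.10 for the Mrpl35 probe A_52_P223407 (limma p = 0.154, exact permutation p = 0.229). The groups did not overlap in 1 probe of 114, Mrpl16, the relative of bacterial L16, with a change of -0.07; this held for 2.83% of all probes. No probe passed after Benjamini-Hochberg adjustment over all probes, the smallest adjusted p being 0.998 in limma. Leaving out NonTg replicate 4 gave 4 probes under 0.05, the most of any array left out; without NonTg replicate 1 or SOD1G93A replicate 4 there were 2, and without NonTg replicate 2 or SOD1G93A replicate 2 there was 1.

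**Figure D2:**
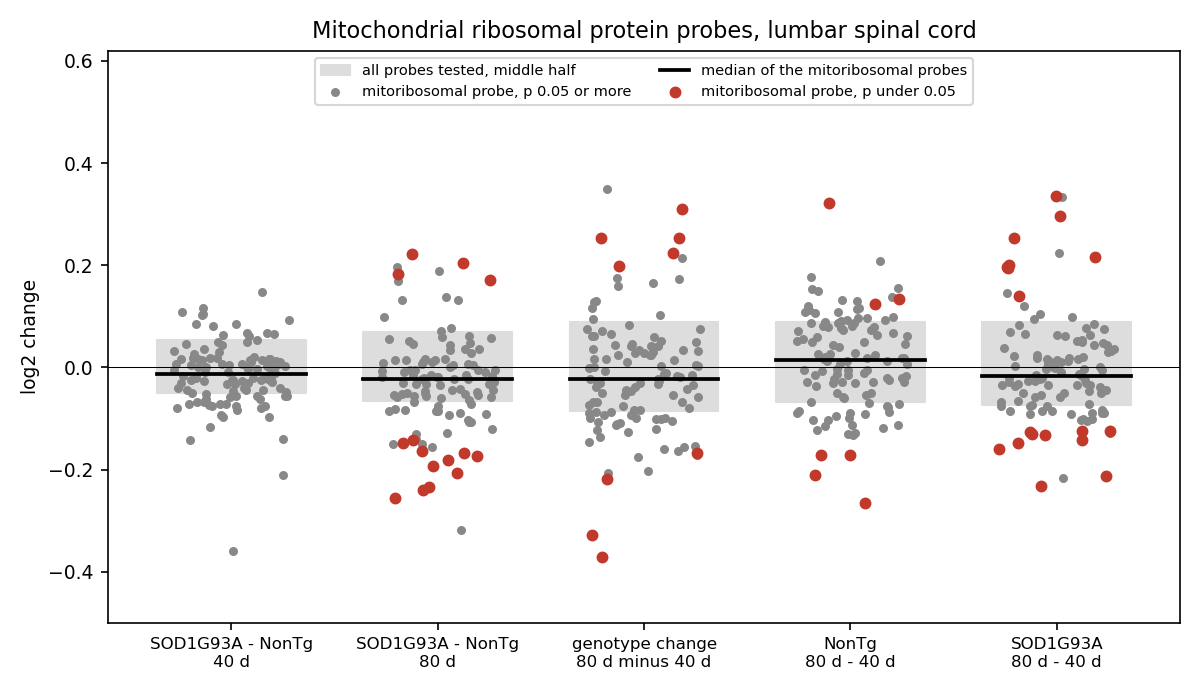
Log2 change of each mitochondrial ribosomal protein probe (points) in the 5 comparisons on the horizontal axis, red where the unadjusted limma p was under 0.05; the black bar is the median of these probes and the grey box the interquartile range of all probes tested. No point is red at 40 days, 15 are at 80 days (4 above and 11 below 0), and all changes lie between -0.37 and 0.35.

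At 80 days 15 of 113 probes, of 12 genes, had an unadjusted limma p under 0.05, which is 13.3% beside 6.86% of all 21603 probes tested. In SOD1G93A cord 11 were lower, beside 3.12% of all probes, and 4 were higher, beside 3.74%. The lower ones were Mrps11, Mrps24, Mrps18c, Mrps28, all 3 probes of Mrps33, Mrpl12, Mrpl20 and 1 probe each of Mrps5 and Mrpl47, and the higher ones were 2 probes of Mrpl44 and 1 each of Mrpl3 and Mrps23. Thus 8 of the 11 lower probes were of small subunit genes, among 45 small and 68 large subunit probes tested. However, 3 of these 8 were probes of 1 gene, Mrps33, and 2 of them overlap, so this is not a count of genes. The median change was -0.02 beside -0.00 over all probes, with 75 probes below 0 and 38 above. With only the brightest probe of each gene read, 55 of 75 genes were below 0, 7 were lower at p under 0.05 and 0 higher, and the median was -0.04. No probe passed after adjustment over all probes, the smallest adjusted p being 0.654 in limma. The counts leaned on single arrays: without NonTg replicate 2 there were 8, without SOD1G93A replicate 2 there were 9, and without SOD1G93A replicate 3 there were 8. Without SOD1G93A replicate 4, the array with the highest microglial markers, there were 14. The excess of calls and the lean to lower values are relative to the scaling of the arrays. Without normalization within arrays 7 of 113 probes were higher and 0 lower, a smaller share than the 10.2% of all probes called. The median of all probes moved to 0.08 in that fit, and relative to that median 64 of 113 probes were below.

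Mrps11, the relative of bacterial S11 on the platform of the small subunit, had the smallest p at 80 days. Its ratios were 0.34, 0.35, 0.20 and 0.24 in NonTg and 0.05, -0.00, 0.06 and 0.07 in SOD1G93A cord. Every SOD1G93A array lay below every NonTg array. The change was -0.24 ± 0.06 (SE; 0.847-fold), with p = 0.00218 and adjusted p = 0.654 in limma and an exact permutation p of 0.0286 (two-sided), the smallest that 4 arrays against 4 can give. At 40 days the groups had been at 0.19 ± 0.07 and 0.17 ± 0.05 (SD, n = 4 each).

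Mrps24, another protein of the small subunit, gave -0.36, -0.35, -0.45 and -0.47 in NonTg and -0.55, -0.63, -0.55 and -0.60 in SOD1G93A cord, again without overlap. Its change was -0.17 ± 0.06 (limma p = 0.0130, exact permutation p = 0.0286). The brightest Mrps33 probe, A_51_P187093, which does not share the stretch printed above, gave 0.06, 0.18, 0.10 and 0.19 in NonTg and 0.03, -0.11, -0.00 and 0.02 in SOD1G93A cord. Those groups did not overlap either, with a change of -0.15 ± 0.06 (limma p = 0.0343, exact permutation p = 0.0286). The overlapping Mrps33 probes changed by -0.17 ± 0.06 (A_52_P342896, limma p = 0.0251, exact permutation p = 0.0571) and -0.19 ± 0.06 (A_52_P579658, limma p = 0.0112, exact permutation p = 0.0286). Mrps33 was the only gene with several tested probes in which every probe passed. Mrps18c, 1 of 3 mammalian relatives of bacterial S18, fell by 0.18 ± 0.07 in its brighter probe (limma p = 0.0227, exact permutation p = 0.0571), and its other probe was at -0.09 (limma p = 0.181, exact permutation p = 0.114). Mrps28 fell by 0.14 ± 0.06 (limma p = 0.0367, exact permutation p = 0.0286), also without overlap.

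In the large subunit, Mrpl12, the relative of the stalk protein L7/L12 that receives translation factors, gave -0.15, -0.24, -0.29 and -0.40 in NonTg and -0.45, -0.36, -0.58 and -0.53 in SOD1G93A cord. A single pair of values crossed between the groups. The change was -0.21 ± 0.07 (limma p = 0.0198, exact permutation p = 0.0571). Mrpl20, the relative of bacterial L20, fell by 0.16 ± 0.06 (limma p = 0.0269, exact permutation p = 0.0286) without overlap, the NonTg arrays lying between 0.15 and 0.18 and the SOD1G93A arrays between -0.09 and 0.13. The largest fall of any size, -0.32 ± 0.15, was that of Mrpl33, a relative of bacterial L33, but it did not pass (limma p = 0.0645, exact permutation p = 0.143).

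The 4 higher calls came from 3 genes, Mrpl44, Mrpl3 and Mrps23. Mrpl44, which carries a ribonuclease III-like fold, gave 0.15, -0.02, -0.07 and 0.04 in NonTg and 0.25, 0.29, 0.33 and 0.11 in SOD1G93A cord with A_51_P471940, a change of 0.22 ± 0.07 (limma p = 0.0116, exact permutation p = 0.0571). A second probe, A_52_P668030, rose by 0.17 ± 0.07 (limma p = 0.0295, exact permutation p = 0.0286) without overlap. The remaining and brightest probe, A_52_P198009, lies furthest along the gene at chr1:79995644-79995703 (plus strand) and changed by 0.00 (limma p = 0.998, exact permutation p = 1.00). The Mrpl3 probe A_52_P480373 gave -0.74, -0.64, -0.61 and -0.67 in NonTg and -0.43, -0.51, -0.44 and -0.45 in SOD1G93A cord, a change of 0.20 ± 0.06 without overlap (limma p = 0.00487, exact permutation p = 0.0286). Its 3 sister probes changed by -0.04, -0.01 and 0.01. Mrps23, found only in mitochondria, rose by 0.18 ± 0.08 in A_51_P338542 (limma p = 0.0345, exact permutation p = 0.0571), and its overlapping and brighter probe gave 0.13 ± 0.06 (limma p = 0.0585, exact permutation p = 0.0286) without overlap of the groups. In all, the genotype groups did not overlap in 9 of 113 probes at 80 days, 6 lower and 3 higher, which held for 4.31% of all probes.

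**Figure D3:**
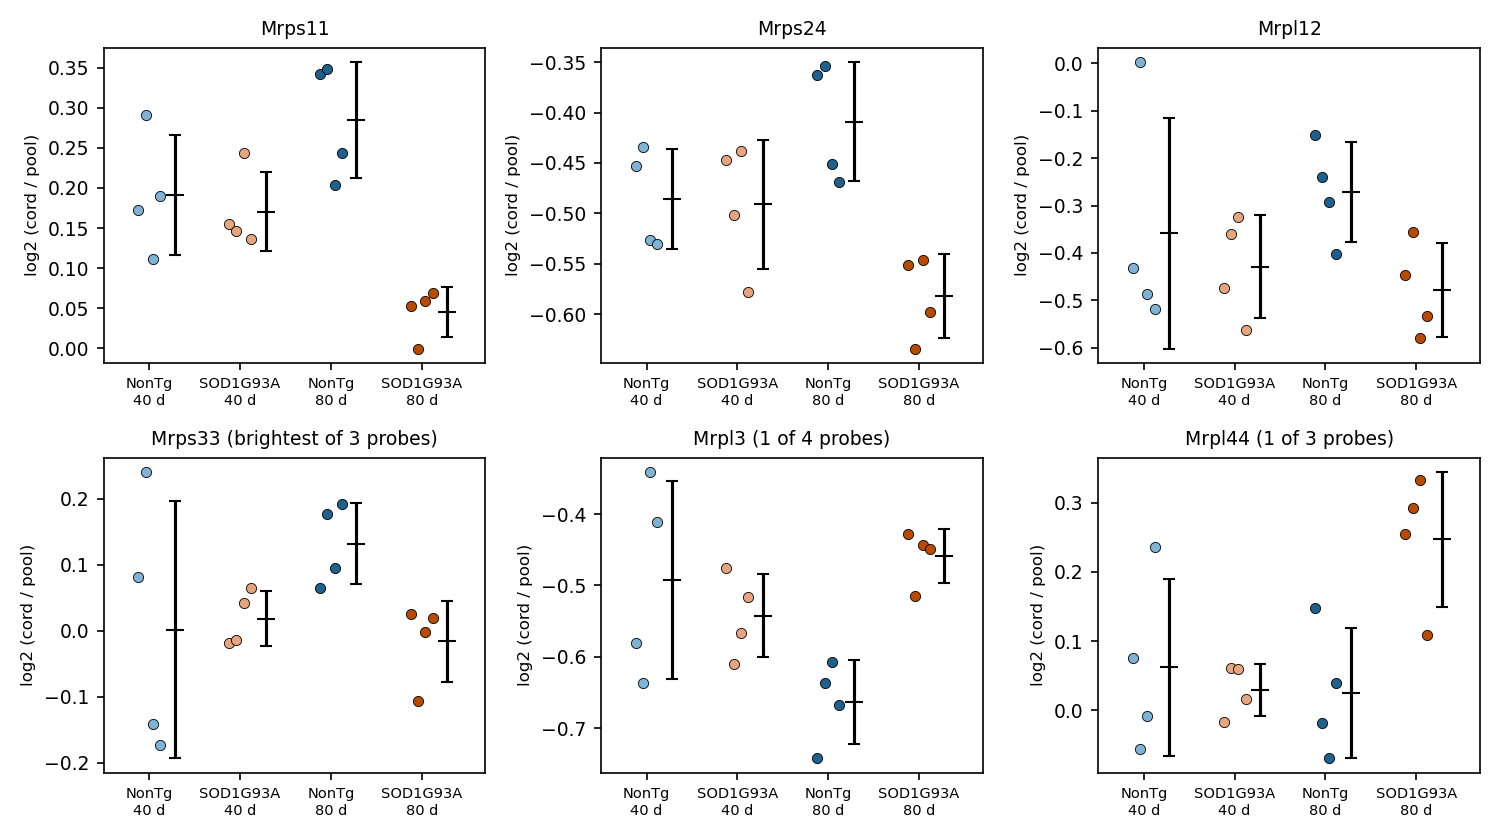
Log2 ratio of cord to pool (vertical axes, each with its own range) for 6 probes in the 4 groups of 4 arrays; each point is an array, and the bar beside it is the mean with the SD. The SOD1G93A arrays of 80 days lie below the NonTg arrays of that age for Mrps11, Mrps24 and Mrps33, and above them for Mrpl3, while for Mrpl12 and Mrpl44 the groups overlap.

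The 4 arrays of 1 replicate number share a slide, each slide holding 1 array of every group in the same 4 positions, and a group and its position on the slide are therefore confounded, whereas the slide can be taken out. Within a slide, the median difference of the 113 probes between SOD1G93A and NonTg at 80 days was -0.03, -0.06, -0.00 and -0.09 on slides 1 to 4, against 0.00, -0.01, 0.01 and -0.02 over all probes. It was below 0 on every slide. At 40 days it was -0.02, -0.04, 0.01 and 0.00. With slide as a block, 13 of the 113 probes passed at 80 days, beside 7.82% of all probes. The calls lost among those named above were Mrps33 A_51_P187093, Mrps23 A_51_P338542 and Mrps28, with limma p-values of 0.0615, 0.0610 and 0.0593.

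Other gene groups moved by similar or larger amounts at 80 days, where 3.12% of all probes were called lower and 3.74% higher. Of 44 complex I probes 35 were below 0, 7 were lower at p under 0.05 and 0 higher, with a median of -0.07. Of 124 cytosolic ribosomal protein probes 91 were below 0, 14 were lower and 1 higher, also with a median of -0.07. Without normalization within arrays both turned: 28 complex I and 73 cytosolic probes were then above 0, with 2 and 9 called higher and 0 and 1 lower. In that fit 10.2% of all probes were called, and 32 and 88 lay below the median of all probes, 0.08. Single arrays of 80 days moved the counts of lower probes. For complex I it was 3 without NonTg replicate 4 and 11 without NonTg replicate 1. For cytosolic ribosomal proteins it was 4 without SOD1G93A replicate 2, 6 without NonTg replicate 3 or 4, 9 without SOD1G93A replicate 3 and 29 without SOD1G93A replicate 4. Taken over its probes, each array's median deviation from the 16-array mean lay between -0.04 and 0.03 for the mitochondrial ribosomal proteins. It lay between -0.02 and 0.03 on the NonTg arrays and between -0.04 and 0.01 on the SOD1G93A arrays of 80 days, so the groups overlapped. For complex I the same deviation was -0.01 to 0.14 and -0.05 to -0.01, and for cytosolic ribosomal proteins 0.02 to 0.16 and -0.10 to 0.16. No test was made of a difference between these gene groups.

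**Figure D4:**
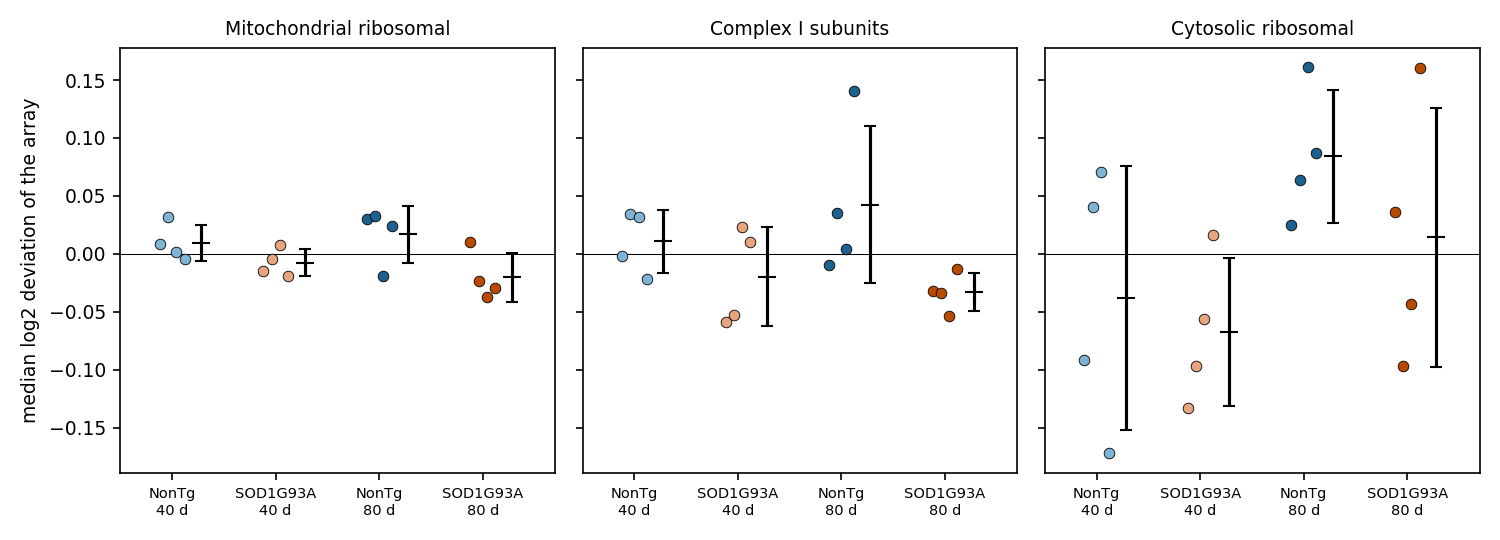
Median deviation of the probes of 3 gene groups from their means over 16 arrays (vertical axis, log2), 1 point per array, in the 4 groups of 4 arrays with the mean and SD beside them. The mitochondrial ribosomal proteins stay between -0.04 and 0.03 on every array, and the cytosolic ribosomal proteins range from -0.17 to 0.16.

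The genotype change at 80 days minus that at 40 days was tested over all 16 arrays. It passed at p under 0.05 in limma in 9 of 114 probes, 5 higher and 4 lower, where 6.68% of all 21953 probes did, and in no probe after adjustment (smallest adjusted p = 0.608). Without NonTg 40 days replicate 2 there were 14, and without SOD1G93A 40 days replicate 2, the array with the muscle markers, there were 10. Of the 9 probes, 8 were also called at 80 days, a comparison whose arrays this one shares. They were those of Mrps11 (-0.22 ± 0.08), Mrpl3 A_52_P480373 (0.25 ± 0.09), Mrpl44 A_52_P668030 (0.31 ± 0.12) and A_51_P471940 (0.25 ± 0.10), Mrps23 A_51_P338542 (0.22 ± 0.09), Mrps5 A_52_P147870 (-0.33 ± 0.14), Mrps24 (-0.17 ± 0.07) and Mrpl47 A_52_P595537 (-0.37 ± 0.17). The overlapping Mrps23 probe A_52_P5420 was the ninth (0.20 ± 0.08). The unadjusted limma p-values of the 9 ran from 0.0101 for Mrps11 to 0.0445 for Mrpl47. With slide as a block Mrpl47, a relative of bacterial L29, no longer passed, with a limma p-value of 0.0576. Without normalization within arrays the values of Mrps11 and Mrps24 turned to 0.04 and 0.09, in a fit where the median of all probes moved to 0.20.

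Between 40 and 80 days the mitochondrial ribosomal proteins of NonTg cord gave a count that depended on the normalization. In limma 7 of 114 probes passed, 3 higher and 4 lower, which is 6.14% beside 15.1% of all probes tested. Without normalization within arrays 22 passed, all lower, beside 18.1% of all probes. None passed after adjustment over all probes (smallest adjusted p = 0.138), where 347 of all probes did. Over the same arrays 27 of 124 cytosolic ribosomal protein probes were higher and 0 lower, with a median of 0.12, beside 0.01 for the mitochondrial ones; without normalization within arrays 5 were lower and 0 higher, and their median was then 0.06 above that of all probes. The mitochondrial probes that passed were Mrpl43 A_52_P374351 (-0.17 ± 0.05, limma p = 0.00602, exact permutation p = 0.0286), Mrpl3 A_52_P480373 (-0.17 ± 0.06, limma p = 0.0163, exact permutation p = 0.0857), Mrpl37 (-0.21 ± 0.09, limma p = 0.0337, exact permutation p = 0.0857), Mrps7 A_51_P193302 (-0.27 ± 0.12, limma p = 0.0379, exact permutation p = 0.143), Mrpl46 (0.13 ± 0.06, limma p = 0.0341, exact permutation p = 0.0571), Mrpl33 (0.32 ± 0.14, limma p = 0.0361, exact permutation p = 0.0571) and Mrpl54 (0.12 ± 0.05, limma p = 0.0365, exact permutation p = 0.0857). The values of Mrpl46 and Mrpl54 turned to -0.01 and -0.04 without normalization within arrays, where all probes had a median of -0.11. Single arrays moved this count: it was 17 without 40 days replicate 2, 12 without 80 days replicate 4, 4 without 80 days replicate 1, and 3 without 40 days replicate 3 or 80 days replicate 2.

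In SOD1G93A cord 18 of 114 probes, of 13 genes, passed between the ages, 8 higher and 10 lower. That is 15.8% beside 16.9% of all probes, which rose in 8.64% and fell in 8.28%, so the share was near the background. The split turned with the normalization: without it within arrays 11 passed, all higher, beside 12.5% of all probes. With processed signals 15 passed, 3 higher and 12 lower, beside 17.2% of all probes. None passed after adjustment (smallest adjusted p = 0.113 in limma), although with array weights 2 did. The smallest p was that of Mrps36, which gave 0.49, 0.55, 0.57 and 0.50 at 40 days and 0.35, 0.39, 0.25 and 0.27 at 80 days. The ages did not overlap, and the change was -0.21 ± 0.06 (limma p = 0.00399, exact permutation p = 0.0286). Its second probe also passed, at -0.12 (limma p = 0.0454, exact permutation p = 0.0857). Mrpl44 A_51_P471940 rose by 0.22 ± 0.07 (limma p = 0.00651, exact permutation p = 0.0286), Mrpl32 fell by 0.13 ± 0.05 (limma p = 0.0188, exact permutation p = 0.0286) and both probes of Mrpl43 fell, by 0.14 ± 0.05 and 0.13 ± 0.06 (limma p = 0.0191 and 0.0456, exact permutation p = 0.0571 and 0.0571). The count was 8 without 40 days replicate 1, 11 without 40 days replicate 3 or 80 days replicate 1, 9 without 80 days replicate 2 and 7 without 80 days replicate 3; without 40 days replicate 2, which carried the muscle markers, it was 13.

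With age in SOD1G93A cord Mrps5 had probes called in both directions, and probes of both signs, called or not, were found in 9 of the 26 genes with several tested probes. A_52_P147870, the probe nearest the start of the gene, gave 0.48, 0.31, 0.23 and 0.20 at 40 days and 0.20, -0.04, -0.01 and 0.14 at 80 days in SOD1G93A cord, a change of -0.23 ± 0.10 (limma p = 0.0283, exact permutation p = 0.0286). A_51_P493270 gave -0.72, -0.44, -0.53 and -0.49 and then -0.40, -0.21, 0.04 and -0.43, a rise of 0.30 ± 0.11 (limma p = 0.0149, exact permutation p = 0.0286). A_52_P650288 gave -0.68, -0.49, -0.49 and -0.50 and then -0.36, -0.17, 0.13 and -0.42, a rise of 0.33 ± 0.13 (limma p = 0.0235, exact permutation p = 0.0286). In each of the 3 probes the ages did not overlap. A_52_P333241, the one furthest along the locus and well above background on 14 arrays, changed by -0.05 (limma p = 0.406, exact permutation p = 0.457). At 80 days A_52_P147870 was also lower in SOD1G93A than in NonTg cord (-0.24; limma p = 0.0471, exact permutation p = 0.114), while A_51_P493270 was at 0.17 and A_52_P650288 at 0.13, with limma p-values of 0.176 and 0.349. In NonTg cord A_51_P493270 and A_52_P650288 also rose with age, without passing at p under 0.05 in limma. Their genotype change did not differ between the ages at that threshold, whereas that of A_52_P147870 did (-0.33). The direction of Mrps5 therefore depends on the probe that is read.

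**Figure D5:**
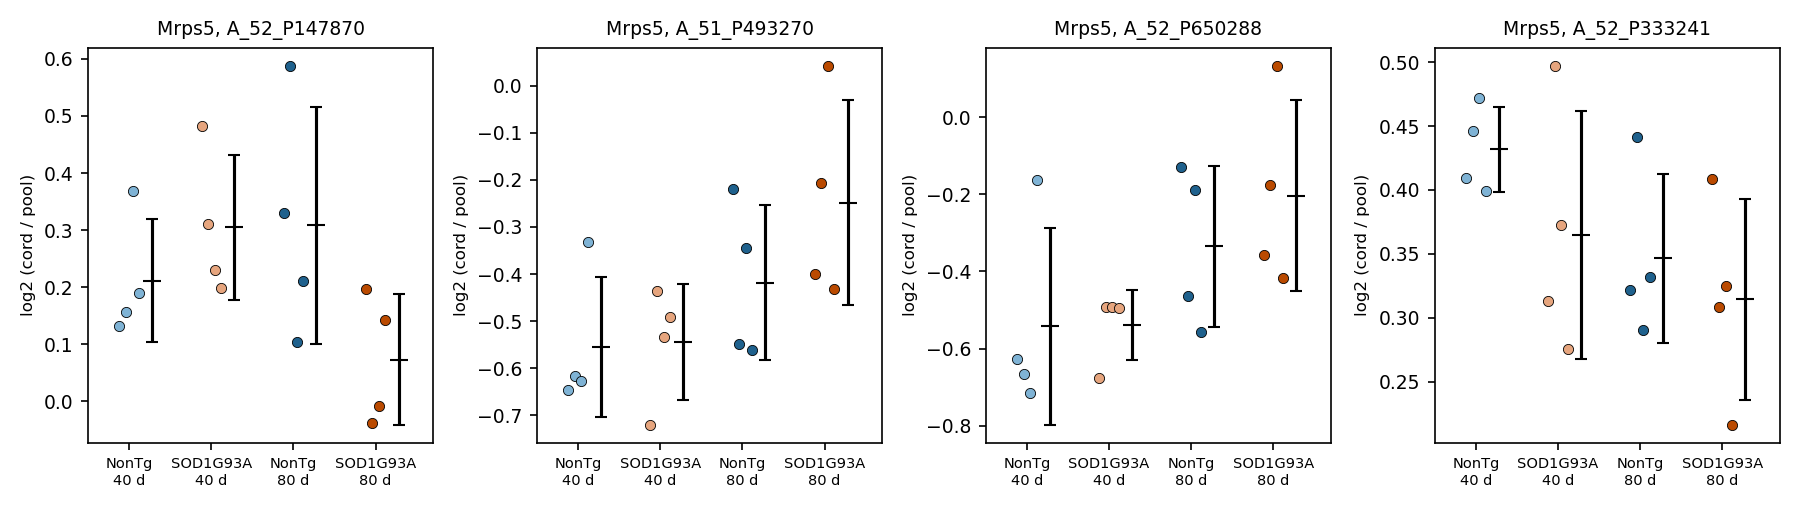
Log2 ratio of cord to pool (vertical axes, each with its own range) for the 4 probes of Mrps5 in the order of their place along the gene, in 4 groups of 4 arrays; each point is an array, and the bar beside it is the mean with the SD. From 40 to 80 days in SOD1G93A cord the first probe fell by 0.23, A_51_P493270 and A_52_P650288 rose by 0.30 and 0.33, and the last was at -0.05.

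Agreement between probes was limited in general. Among the genes with several tested probes, all probes had the same sign of change in 9 of 26 genes at 40 days, 14 of 25 at 80 days, 18 of 26 with age in NonTg and 17 of 26 with age in SOD1G93A cord. At 80 days 7 such genes had a called probe, and in 1, Mrps33, all tested probes were called.

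Genes that serve the mitochondrial ribosome were read in the same fits. Between the genotypes 4.47% of all probes were called at 40 days, and 3.74% were called higher and 3.12% lower at 80 days. Of 27 probes of assembly and ribosomal RNA factors 1 was higher and 0 lower in SOD1G93A cord at 80 days, and 1 was higher and 1 lower at 40 days. With age in NonTg cord 4 of them were lower and 3 higher, where 15.1% of all probes were called. Both probes of Trub2 were among the lower ones. Another was that of Tfb1m, the methyltransferase of the small ribosomal RNA, at -0.33 ± 0.08 (adjusted p = 0.0496 in limma). Of 22 probes of translation factors and partners 1 was lower at 80 days, that of Slirp (1810035L17Rik on the array), which binds mitochondrial mRNA, at -0.31 ± 0.06 (adjusted p = 0.654 in limma). Another, Tsfm, the elongation factor Ts, was higher at 0.15 ± 0.06 (adjusted p = 0.708 in limma). Of 18 probes of mitochondrial tRNA synthetases 0 were higher and 1 lower, that of Lars2, the leucine enzyme, at -0.46 ± 0.16 (adjusted p = 0.683 in limma). Of 8 probes for transcription of mitochondrial DNA 6 were below 0, with a median of -0.04, and the 2 above it were called: that of Polrmt, the mitochondrial RNA polymerase (0.17 ± 0.08, adjusted p = 0.721 in limma), and 1 of 3 probes of Tfam, which packages mitochondrial DNA (A_52_P351785, 0.20 ± 0.08, adjusted p = 0.708 in limma). The other Tfam probes were at -0.09 and -0.08. Of 16 probes of nuclear regulators such as Nrf1, Gabpa and Yy1, 0 passed between the genotypes at either age in limma. With age in SOD1G93A cord 14 of the 16 were below 0. There 3 were called lower, beside 8.28% of all probes, and 0 higher (smallest adjusted p = 0.182 in limma). Those called were 2 probes of Ppargc1b (-0.19 and -0.20) and 1 of Yy1 (-0.22), and no probe of Nrf1 or Gabpa was among them. In NonTg cord 12 of the 16 were below 0 with age, and 0 were called. Of 11 probes of ribosomal proteins under other names 0 passed at 80 days and 1 of the 2 probes of Gadd45gip1 was higher at 40 days (0.37 ± 0.15, adjusted p = 0.998 in limma), while the other was at -0.12 ± 0.07. Of 14 probes of general mitochondrial proteins 9 were above 0 at 80 days and 5 below. Called higher were 4, where 3.74% of all probes were, and 0 were called lower. The called probes were those of the outer membrane channel Vdac1 (0.30 ± 0.07, adjusted p = 0.654 in limma) and the import pore Tomm40 (0.28 ± 0.10, adjusted p = 0.683 in limma). The others called were those of the chaperonin Hspd1 (0.22 ± 0.09, adjusted p = 0.708 in limma) and Cs, citrate synthase (0.21 ± 0.08, adjusted p = 0.708 in limma). The other probes of Vdac1, Hspd1 and Cs were at 0.12, 0.06 and 0.18 and did not pass. Those below 0 were the probes of Vdac2, Timm23 and Immt and 1 of Tomm20, the lowest at -0.02.

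Cell type markers moved with the same comparisons. At 40 days all 14 astrocyte probes were above 0 in SOD1G93A cord, 5 of them at p under 0.05 in limma. Of 14 oligodendrocyte probes 13 were above 0, 4 of them at that threshold, where 4.47% of all probes were called in either direction. Without normalization within arrays 8 and 7 of the 14 were above 0 and 0 passed in either list in limma, in a fit where the median of all probes was -0.12 and 14 and 13 lay above it. The astrocyte count was 2 without NonTg replicate 2, 3 without SOD1G93A replicate 3 or 4 and 8 without NonTg replicate 4. The oligodendrocyte count was 1 without NonTg replicate 3 and 2 without SOD1G93A replicate 2, 3 or 4. At 80 days 3.74% of all probes were called higher and 3.12% lower. The astrocyte counts were 0 higher and 1 lower, the oligodendrocyte counts 3 and 0 and the neuronal counts 0 and 1 of 18. The motor neuron counts were 0 and 0 of 6 and the microglial counts 0 and 0 of 13. The median astrocyte deviation ran from -0.17 to 0.01 and from 0.01 to 0.20 in NonTg and SOD1G93A cord at 40 days, and from -0.11 to 0.16 and from -0.13 to 0.11 at 80 days. With age the oligodendrocyte counts were 0 higher and 4 lower in NonTg and 1 and 6 in SOD1G93A cord. Of all probes 15.1% and 16.9% were called in these comparisons. In each genotype 2 oligodendrocyte probes passed after adjustment over all probes in limma. The astrocyte counts with age were 4 higher and 1 lower in NonTg and 1 and 4 in SOD1G93A cord. No muscle, erythrocyte or lumbar Hox probe passed between the genotypes in limma, although most of each list lay on 1 side of 0. The muscle probes were above 0 in 8 of 8 at 40 days and 9 of 9 at 80 days, with medians of 0.75 and 0.52. The erythrocyte probes were below 0 in 6 of 7 and 7 of 7, with medians of -0.02 and -0.20, and the Hox probes in 4 of 4 at both ages, with medians of -0.13 and -0.12. Without normalization within arrays 3 of the 4 Hox probes were below 0 at each age, although at 40 days 3 lay above the median of all probes. The part of these cell types in the values of the mitochondrial ribosomal proteins was not tested.

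Promoters were searched for short motifs because mitochondrial ribosomal protein genes are known as targets of nuclear respiratory factors. RefSeq (GRCm38.p6) gave a sequence from 250 bases before to 50 bases after the start for 66 of the 75 genes, 72 promoters in all. Each motif was looked for on both strands among these and among all 32851 promoters. The core of the NRF-1 site (GCGCATGCG) was in 9.72% against 1.75% of all promoters, the ETS motif bound by GABP (CCGGAAGT) in 16.7% against 3.89%, and the YY1 motif (AAGATGGCG) in 9.72% against 1.40%. The CCAAT box (CCAAT) was in 40.3% against 37.4%, and a TATA box (TATAAA) in 6.94% against 13.6%. At least 1 of the first 3 motifs was found in 25 genes. The windows below are examples from genes described above, 30 bases each and read along the gene's own strand, with the motif in capitals. That of Mrps11 is chr7:78783013-78783042 (plus strand), of Mrps24 chr11:5707652-5707681 (minus), of Mrps18c chr5:100798591-100798620 (plus), of Mrpl3 chr9:105053238-105053267 (plus) and of Mrpl32 chr13:14613105-14613134 (minus).
Mrps11, YY1 motif, reverse: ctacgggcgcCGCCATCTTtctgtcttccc
Mrps24, YY1 motif: cgggtcgcgccggcccAAGATGGCGtggtc
Mrps18c, ETS motif, reverse: cgggtcacgtgACTTCCGGcccgggaagcg
Mrpl3, ETS motif: tgagaaacggaCCGGAAGTggcccggctgt
Mrpl32, NRF-1 core: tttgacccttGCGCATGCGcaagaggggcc
A match is a description of these letters only. Mrps11 and Mrps24, shown with the YY1 motif, were both lower in SOD1G93A cord at 80 days. The YY1 motif was in 7 genes, and the others, Mrpl35, Mrpl36, Mrpl37, Mrps18a and Mrps27, had no called probe in that comparison. Of the genes shown with the ETS motif, Mrps18c was lower, whereas in Mrpl3 1 probe of 4 was higher. The ETS motif was in 12 genes and the NRF-1 core in 7, and no other gene with either had a called probe there. A link between a motif and a change was not tested.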

How the data were processed

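Lumbar cord RNA (Cy3) and the reference pool (Cy5) were hybridised to 2-colour Agilent whole mouse genome arrays. The deposited scanner files hold spot and background intensity values that the authors made with Agilent Feature Extraction 9.5.3.1, per the file headers; the deposited series table holds the authors' normalized log2 values of the Cy3 channel, whose quantiles are equal within each age, and was used as an alternative. The files give the array design on the mm7 assembly. In limma 3.58.1 (R 4.3.3) where a spot's median signal lay over 20 units under its local background, that background was set to the array's median; intensities were corrected by normexp with an offset of 50, normalized by loess within arrays and by Aquantile between arrays, without control or outlier spots, and repeated spots of a probe were averaged. A probe entered a test if 3 or more of the 4 arrays of some group in it had Cy3 well above background.

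Groups follow the labels, with 4 arrays each. Nothing gives the animals' litters, so p-values measure the spread between these arrays, whose number limits the precision. Genotype comparisons were fitted on the 8 arrays of an age and the others on all 16, each over all tested probes with Benjamini-Hochberg adjustment; an unadjusted p under 0.05, the threshold of the study's methods, counts as a call. Exact permutation tests over the 70 splits of 4 against 4 arrays (two-sided) were added for named probes. Of the 125 accessions, 105 matched RefSeq, all with the array's symbol. Named were up to 12 called probes per comparison by p, those without overlap between genotypes, the largest rise and fall, the 4 highest and 4 lowest ratios, and at most 3 called probes per list; the rest were chosen after their values were seen. In the lists, 3 probes whose accession RefSeq gives to a gene outside the list were left out. The brightest probe (mean Cy3) stood for a gene. The members and all lists were chosen with earlier results of these data known. Replicate numbers mark slides, per the file headers; deviations from the group means correlated between same-slide arrays at -0.18 to 0.21 over 24 pairs (17728 probes). Alternatives were bright backgrounds kept, no background subtraction, processed signals, no normalization within arrays, the series table, no filter, array weights, a slide block and leaving out each array.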

Additional observations from a re-analysis of the deposited data

Results flagged for a closer look

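Among 152 groups of 4 arrays examined, 10 held 1 array far from the others, where chance gives about 1 in 20. These were Mrps11 in SOD1G93A 40 days replicate 3 (0.24, the others 0.14 to 0.15), Mrpl12 in NonTg 40 days replicate 2 (0.0029, the others -0.52 to -0.43), Mrps23 A_51_P338542 in SOD1G93A 40 days replicate 3 (-0.068, the others -0.10), Mrpl33 in NonTg 40 days replicate 1 (-0.68, the others -0.97 to -0.92) and Mrpl54 in SOD1G93A 40 days replicate 3 (-0.91, the others -0.97 to -0.96). The Mrps5 probes A_51_P493270 and A_52_P650288 were both highest on NonTg 40 days replicate 4 (-0.33 and -0.16), and A_52_P650288 was lowest on SOD1G93A 40 days replicate 1 (-0.68). Mrpl32 was highest on NonTg 80 days replicate 2 (-0.73, the others -0.77). The median deviation of all mitochondrial ribosomal protein probes was lowest on NonTg 80 days replicate 3 (-0.020, the others 0.024 to 0.033), the NonTg array with the highest microglial markers at that age.

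The genotype change differed between the ages, by an interaction term in limma at an unadjusted p under 0.05, for Mrps11 (-0.22), Mrpl3 A_52_P480373 (0.25), Mrpl44 A_52_P668030 (0.31) and A_51_P471940 (0.25), Mrps23 A_51_P338542 (0.22) and A_52_P5420 (0.20), Mrps5 A_52_P147870 (-0.33), Mrps24 (-0.17) and Mrpl47 A_52_P595537 (-0.37). None passed after adjustment over all probes, where 1466 of all 21953 probes had an unadjusted p under 0.05.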

How the results depend on the processing

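Without normalization within arrays, the counts of called probes became 3 (40 days), 7 (80 days), 18 (genotype by age), 22 (age in NonTg, all lower) and 11 (age in SOD1G93A, all higher), and the medians -0.14, 0.080, 0.20, -0.12 and 0.074, together with the medians of all probes (-0.12, 0.08, 0.20, -0.11 and 0.08); the single values that turned were Mrps11 (0.043) and Mrps24 (0.093) for genotype by age, and Mrpl46 (-0.013) and Mrpl54 (-0.042) for age in NonTg. Of all probes 5.90%, 10.2%, 19.6%, 18.1% and 12.5% were called in that setting, in the same order. With processed signals the counts were 4, 9 and 11 at 40 days, at 80 days and for age in NonTg. The shares of all probes were 7.57%, 7.03% and 17.1%. The medians with processed signals were -0.053 at 80 days and -0.056 for genotype by age. At 40 days the count was 1 with no background subtraction, with the series table or with no filter. Of all probes 4.75%, 2.52% and 4.57% were then called. With array weights the count was 2, beside 6.39% of all probes. At 80 days the count was 8 with the series table, beside 5.26% of all probes, and the median was -0.048 with array weights. For age, the count was 11 in NonTg with no filter, beside 12.2% of all probes. It was 11 in SOD1G93A cord with bright backgrounds kept, beside 11.4%. With the replicate block (slide) the counts were 0, 13, 8, 8 and 13, and 37 of the 41 named calls held. The shares of all probes called with that block were 4.49%, 7.82%, 6.85%, 15.6% and 16.7%. Leaving out each array gave counts of 0 to 4, 8 to 17, 6 to 14, 3 to 17 and 7 to 20, and medians of -0.02 to 0.00, -0.050 to -0.018, -0.042 to -0.013, 0.00 to 0.03 and -0.02 to -0.01; 13 of the 41 named calls held without any 1 array. The causes were not tested.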
